A study of Rattus norvegicus with 12 samples.

Results

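Genes of the oxidative machinery of myeloid cells were measured in the rat heart 1 day after surgery. The 7 described here are the subunits of the phagocyte NADPH oxidase Cybb, Cyba, Ncf1, Ncf4 and Rac2, its homolog Nox4 and the inducible nitric oxide synthase gene Nos2. They were chosen by name from the gene table of an RNA-seq series, and 6 of the 7 names had a row among its 34599 genes. Nos2 was not analysed here under its own name, and an entry that bears on it, LOC497963, is described apart from the members. The libraries came from the left ventricle of 12 male Sprague Dawley rats, 4 in each of 3 groups. Sham rats had their chest opened while the left anterior descending (LAD) branch of the coronary artery stayed unligated. MI rats had the artery ligated, which produces a myocardial infarction. The iCarP+/Light+ rats had the ligation, an injection of the green alga Chlorella into the infarcted wall, and a flexible light-emitting patch, iCarP, fixed to the epicardium with an adhesive layer and switched on. These 4 elements came together in every iCarP+/Light+ rat, so their parts in any difference from MI cannot be told apart, and a group with the patch kept dark was not analysed here. The labels give the infarct region as the harvested site for all 12 libraries, also for the Sham rats, which had no ligation.

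The phagocyte NADPH oxidase passes electrons from NADPH across a membrane to oxygen and makes superoxide, which neutrophils and macrophages use against microbes and which is also released into injured tissue. Its core is a pair of membrane proteins, gp91phox (Cybb) and p22phox (Cyba). It is switched on when the cytosolic proteins p47phox (Ncf1) and p40phox (Ncf4) and a GTP-bound Rac move, with others, to that core. Inducible nitric oxide synthase makes nitric oxide and citrulline from L-arginine and is a common readout of activated myeloid cells. In the heart, infarction brings first neutrophils and then monocytes into the ventricular wall.

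The members lay on 5 chromosomes in the coordinates of the count table, whose build is given as rn6 in the submitters' processing notes. Cybb (ENSRNOG00000003622) was at chrX:14578264-14612547 on the plus strand, Cyba (ENSRNOG00000013014) at chr19:55249616-55257876 on the minus strand and Ncf1 (ENSRNOG00000001480) at chr12:25497104-25506300 on the plus strand. Ncf4 (ENSRNOG00000006940, chr7:119482272-119499425, plus strand) and Rac2 (ENSRNOG00000007350, chr7:119783849-119797098, minus strand) were near each other on chromosome 7. Nox4 (ENSRNOG00000013925) was at chr1:150797084-150976194 on the plus strand. All 6 are protein-coding, and none overlapped another gene of the table.

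Cybb and Nox4 encode homologous catalytic subunits and are shown here by their promoters because their RNA levels moved in opposite directions after infarction. Each RefSeq sequence (GRCr8) runs from 250 bases before the annotated transcription start to 50 bases after it, 5′ to 3′ on the strand of the gene. The Cybb sequence is chrX:16065016-16065315 on the minus strand and the Nox4 sequence chr1:150313639-150313938 on the plus strand of that build, which is later than rn6 and has Cybb on the other strand. The capitals mark the letters ACGTG, a form of the core of the element that hypoxia-inducible factors bind. The form GCGTG was not looked for and stands unmarked in the Nox4 sequence.
Cybb: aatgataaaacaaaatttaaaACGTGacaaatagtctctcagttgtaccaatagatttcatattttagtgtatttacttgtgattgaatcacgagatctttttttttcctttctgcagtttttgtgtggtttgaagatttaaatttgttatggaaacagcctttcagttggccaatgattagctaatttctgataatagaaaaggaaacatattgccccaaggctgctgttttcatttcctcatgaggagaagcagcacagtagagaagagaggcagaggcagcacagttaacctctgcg
Nox4: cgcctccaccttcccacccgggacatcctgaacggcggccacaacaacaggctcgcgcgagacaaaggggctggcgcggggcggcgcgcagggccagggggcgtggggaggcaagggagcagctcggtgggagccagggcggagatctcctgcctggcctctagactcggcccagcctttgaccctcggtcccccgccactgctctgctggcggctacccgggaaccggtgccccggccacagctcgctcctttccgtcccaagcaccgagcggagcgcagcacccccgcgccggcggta
The promoter of Cybb was 35.7% G and C and that of Nox4 73.0%, where the median over the 33469 promoters of the table was 51.7%. The letters ACGTG stood once in the Cybb sequence, from position -229 to -225 relative to the start, and 19.3% of all promoters of this length held them on either strand. Another 5 patterns were looked for on both strands in the promoters of Cybb, Nox4, Cyba (chr19:67404165-67404464, minus strand) and Ncf1 (chr12:28121635-28121934, plus strand), the 4 members with an entry, and none was found. They were GAGGAAG (PU.1 type, in 12.4% of all promoters), TTGCNNAA (C/EBP type, 10.6%), TATAAA (14.2%) and the longer patterns of STAT6 type (7.28%) and of NF-kappaB type (1.53%). A match or its lack in this window is a description of these letters only. Ncf4, Rac2 and Nos2 had no entry.

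Levels are given as CPM, counts relative to library size after scaling by the trimmed mean of M-values (TMM), and comparisons between genes as the same per kilobase of transcript (RPKM). Total counts were 14064414 to 17136958 per rat, and all 6 members had at least 65 counts in every library. Differences are log2 fold changes from edgeR's quasi-likelihood test, fitted to all 12 rats, with p-values adjusted by Benjamini-Hochberg over the 15101 genes tested and called below 0.05. The labels do not say from how many litters or operating days the rats came, so the p-values measure the spread between these samples. Mitochondrial genes took 22.8 to 28.9% of the counts in Sham libraries and a smaller share after ligation (MI 8.52 to 11.5%, iCarP+/Light+ 7.14 to 14.2%).

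In the Sham ventricle the membrane subunit Cyba and the organizer Ncf1 stood highest of the members per length, and Ncf4 lowest. Mean RPKM was 51.3 for Cyba, 40.9 for Ncf1, 17.8 for Rac2, 16.1 for Cybb, 7.58 for Nox4 and 4.19 for Ncf4. The rats of neighbours in that order overlapped for Rac2 and Cybb and for Nox4 and Ncf4, and for no other neighbouring pair of members. In MI the order was Cyba (259), Rac2 (96.6), Cybb (91.0), Ncf4 (63.0), Ncf1 (39.9) and Nox4 (2.38). From Rac2 down to Ncf1 every neighbouring pair overlapped, so only Cyba at the top and Nox4 at the bottom stood clear of the other members. In iCarP+/Light+ rats it was Rac2 (437), Cyba (267), Ncf4 (163), Cybb (109.6), Ncf1 (94.1) and Nox4 (2.37). Rac2 and Cyba overlapped there, as did Ncf4, Cybb and Ncf1 in turn, and Nox4 was again below all other members. Cybb was the lesser of the membrane partners in RPKM in all 12 rats. Its partner Cyba stood above it by a median of 3.44-fold in Sham, 2.53-fold in MI and 2.41-fold in iCarP+/Light+.

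**Figure D1:**
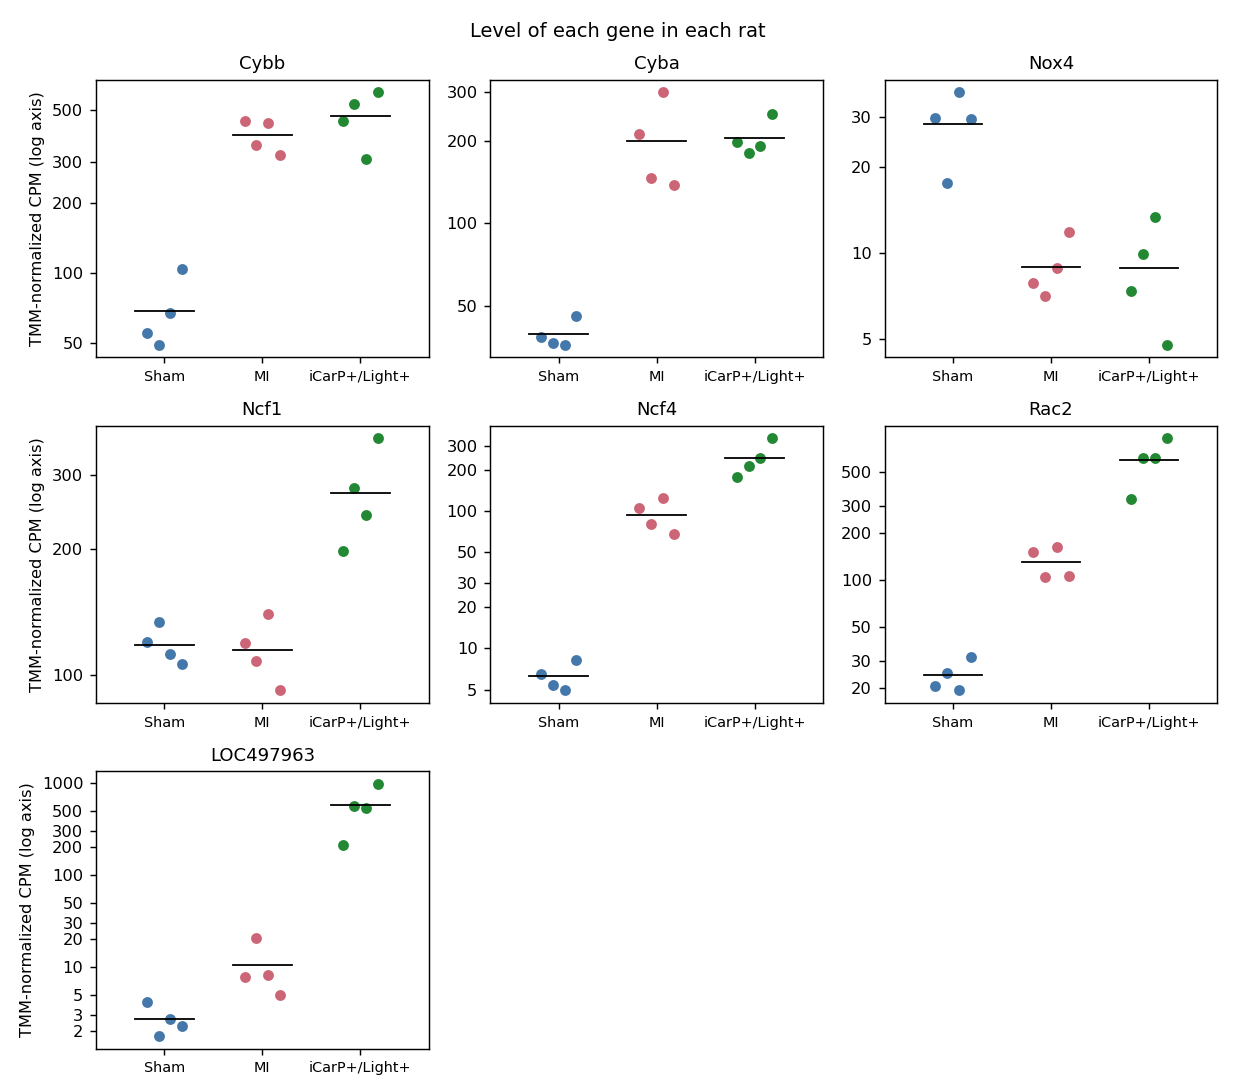
TMM-normalized CPM on log axes, each panel with its own range, of the 6 members with a row and of LOC497963. Each point is 1 rat, in the order of the rats' numbers, and each line is the mean of 4 rats. The rats of MI and iCarP+/Light+ overlap for Cybb and Cyba, those of Sham and MI overlap for Ncf1, and LOC497963 lies between 213 and 978 CPM in iCarP+/Light+ against 5.00 to 20.8 in MI.

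The first comparison, MI with Sham, asks what coronary ligation did to these genes within a day. Of the 6 members 4 rose (Cybb, Cyba, Ncf4 and Rac2), Nox4 fell, and Ncf1 did not pass the test. The changes ran from a 15.0-fold rise of Ncf4 to a fall of Nox4 to 0.314 of its Sham level. Of all genes tested in this comparison 63.8% were called, 30.2% higher and 33.6% lower, so calls were common. The median log2 fold change was 2.39 over the 6 members and -0.06 over all genes. The 4 MI rats lay wholly above the 4 Sham rats for all 4 members that rose and wholly below them for Nox4, as the rats of 59.0% of all genes did in one direction or the other.

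Of the membrane core, Cybb was at 55.4, 49.4, 67.6 and 104 CPM in Sham rats 1, 2, 3 and 5, and at 446, 353, 437 and 321 CPM in MI rats 1, 3, 4 and 5. Every MI rat stood above every Sham rat, and the change was 2.50 on the log2 scale (SE 0.26, edgeR adjusted p = 2.74e-06). Cyba, the stabilising partner that Cybb needs to reach the membrane, went from 38.7, 36.7, 36.2 and 46.0 CPM to 212, 146, 299.9 and 138 CPM. It rose by 2.34 on the log2 scale (SE 0.23, edgeR adjusted p = 1.85e-06), again with no overlap. The Cyba to Cybb ratio per kilobase did not pass its test in any of the 3 comparisons (exact permutation test, adjusted p = 0.171 to 0.571 over 24 ratio tests).

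The cytosolic subunits did not move as one. Ncf4, whose product binds membrane phosphoinositides, was at 6.50, 5.39, 4.93 and 8.26 CPM in Sham and at 105, 80.1, 124 and 68.0 CPM in MI rats, the largest fold change among the members. Its change was 3.91 on the log2 scale (SE 0.26, edgeR adjusted p = 1.26e-07). Ncf1, the organizer that is phosphorylated to start assembly, was at 120, 134, 112 and 106 CPM in Sham and at 119, 108, 139.8 and 91.9 CPM in MI. The groups overlapped, and the change was -0.04 on the log2 scale (95% interval -0.43 to 0.36, edgeR adjusted p = 0.869). The sign for Ncf1 depended on the scaling, and with libraries scaled to total counts alone it was 0.53 (edgeR adjusted p = 0.0114), where the median of all genes was itself 0.52.

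Rac2, the Rac GTPase of blood cells, was at 20.6, 25.2, 19.4 and 31.7 CPM in Sham and at 151, 105, 164 and 106 CPM in MI. All MI rats were higher, by 2.44 on the log2 scale (SE 0.27, edgeR adjusted p = 4.76e-06). Rac1, the form that most cells carry, rose less, from a mean of 360.2 to 587 CPM, by 0.70 on the log2 scale (edgeR adjusted p = 0.000239). The Rac2 to Rac1 ratio per kilobase went from a median of 0.158 in Sham to 0.529 in MI, a 3.34-fold difference with no overlap (exact permutation p = 0.0286, adjusted p = 0.0381).

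Nox4, which makes mainly hydrogen peroxide and needs Cyba but not the cytosolic subunits, is known from cardiomyocytes, fibroblasts and endothelium rather than from leukocytes. It was at 29.9, 17.6, 36.7 and 29.5 CPM in Sham and at 7.85, 7.07, 8.89 and 11.9 CPM in MI rats. Every MI rat was lower, and the change was -1.67 on the log2 scale (SE 0.30, edgeR adjusted p = 0.000303). The Nox4 to Cybb ratio per kilobase fell from a median of 0.512 in Sham to 0.0231 in MI (exact permutation p = 0.0286, adjusted p = 0.0381). Markers of some cell types that can carry Nox4 fell as well, where 33.6% of all genes were called lower. Of the cardiomyocyte markers 11 of 11 fell, and their summed level went from 65068 to 70175 CPM in Sham to 4193 to 8564 in MI. Of the fibroblast markers 10 of 12 fell and Postn rose (1.36 on the log2 scale, edgeR adjusted p = 8.25e-05), with a summed level of 10814 to 13521 CPM in Sham and 3226 to 3663 in MI. Of 10 tested endothelial markers 8 fell (2065 to 2322 against 991 to 1520, with Cldn5 at 0 in every library). Of 8 smooth muscle markers 3 fell (Myh11, Smtn and Mylk), a share near that of all genes, and Cnn1 rose. The summed level of these markers overlapped between the groups (2518 to 2973 CPM in Sham, 2561 to 3046 in MI). The part of these cell types in the fall of Nox4 was not tested.

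Most myeloid markers rose with these members. Ptprc, which encodes the pan-leukocyte phosphatase CD45, went from 26.8 to 45.4 CPM in Sham rats to 239 to 324 in MI rats, by 3.07 on the log2 scale (edgeR adjusted p = 2.09e-07). Neutrophil markers went from a summed 20.8 to 34.4 CPM to 441 to 747 CPM, and 9 of the 10 tested rose. Of these, 7 had under 10 counts in some rat and passed the filter on low counts only through the ligated rats, where they were high. Those 7 calls are not used as support. Monocyte and macrophage markers went from 561 to 879.6 CPM to 4022 to 7065 CPM, and 7 of 10 rose. Lymphocyte markers went from a summed 52.5 to 77.8 CPM to 122 to 249 CPM, and of 12 tested 4 rose (Cd8a, Cd3e, Cd3d and Cd3g), Cd4 fell and 7 were not called, a share higher that is near the 30.2% of all genes. Of the 4 that rose, Cd3d and Cd3g had under 10 counts in some rat and passed the filter on low counts only through the ligated rats. No marker of these lists was at 0 in all libraries. In tissue RNA, a change in the number of cells of a type and a change in the RNA of a gene per cell cannot be told apart.

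Set against Ptprc within each rat, the members that were compared in this way did not move alike. Cybb and Rac2 rose less than Ptprc. The Cybb to Ptprc ratio per kilobase was 2.18 to 2.69 in Sham and 1.59 to 1.71 in MI, and the Rac2 to Ptprc ratio 2.25 to 3.49 in Sham and 1.58 to 2.01 in MI. Ncf4 rose more than Ptprc, from a median ratio of 0.650 to 1.10. The Ncf1 to Ptprc ratio fell from a median of 6.82 to 0.724. Each of these 4 ratios passed the exact permutation test (p = 0.0286, the smallest that 4 against 4 rats allow, adjusted p = 0.0381 over 24 tests). The Rac2 to Ptprc call was lost when MI rat 1, 3 or 5 was left out (-0.65 to -0.61 on the log2 scale, exact permutation test, adjusted p = 0.0722). The Sham and MI rats still did not overlap in this ratio then. With a rat fewer the exact test has fewer arrangements, and groups wholly apart need not pass it.

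**Figure D2:**
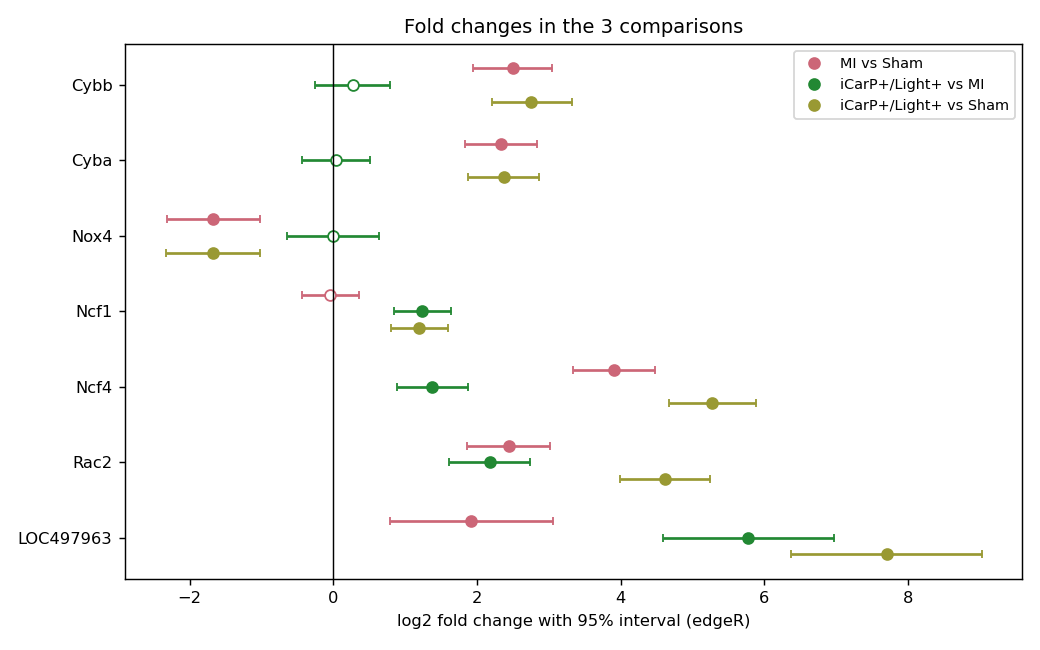
Log2 fold changes of the same 7 genes in the 3 comparisons, with 95% intervals from edgeR. Filled points passed an adjusted p of 0.05 and open points did not. Cybb, Cyba and Nox4 are open in iCarP+/Light+ vs MI (0.27, 0.04 and -0.01), Ncf1 is open in MI vs Sham (-0.04), and LOC497963 has its larger step between MI and iCarP+/Light+ (5.78).

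The second comparison, iCarP+/Light+ with MI, asks how the infarcted ventricle with alga, patch and light differed from the untreated infarct. Relative to MI, 3 members were higher, Ncf1, Ncf4 and Rac2 of the cytosolic side of the oxidase, while the membrane subunits Cybb and Cyba and the homolog Nox4 did not pass the test. None fell by edgeR, DESeq2 or limma-voom, and 0 were lower at an unadjusted p below 0.05 in any of them. Of all genes tested 13.6% were called, 11.6% higher and 2.01% lower, and the median log2 fold change was 0.75 over the 6 members and 0.01 over all genes. The number lower depended on the processing, with 304 genes here, 141 with a replicate block and 2722 with total counts alone. The rats did not overlap for Ncf1, Ncf4 and Rac2, which was so in this direction for 12.1% of all genes. The same 4 MI rats served in this comparison and in the first, so the changes from Sham to MI and from MI to iCarP+/Light+ are not independent.

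Rac2 had the largest change of a member, from 105 to 164 CPM in MI rats to 335, 609, 615 and 824 CPM in iCarP+/Light+ rats 1, 2, 4 and 5. Every treated rat was higher, by 2.18 on the log2 scale or 4.53-fold (SE 0.26, edgeR adjusted p = 0.000106). Rac1 did not follow it (means of 587 and 581 CPM, log2 difference -0.01, 95% interval -0.28 to 0.25, edgeR adjusted p = 0.965). The Rac2 to Rac1 ratio per kilobase was 0.571, 0.481, 0.572 and 0.488 in MI rats and 1.37, 2.68, 2.58 and 3.08 in iCarP+/Light+ rats. Thus Rac2 was the lesser Rac transcript in every Sham and MI rat and the greater in every iCarP+/Light+ rat (exact permutation test against MI, adjusted p = 0.0381).

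Ncf1, which had not passed the test between Sham and MI, was at 197, 279, 241 and 367 CPM in iCarP+/Light+ rats. All lay above the highest MI rat (139.8 CPM), and the change was 1.24 on the log2 scale (SE 0.18, edgeR adjusted p = 0.000546). Ncf4 was at 179, 214, 244 and 341 CPM against 68.0 to 124 in MI, higher by 1.38 (SE 0.23, edgeR adjusted p = 0.00128). The fold changes from MI to iCarP+/Light+ were 2.36 for Ncf1 and 2.60 for Ncf4.

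Cybb was at 445, 530.2, 308 and 593 CPM in iCarP+/Light+ rats, with rat 4 below all MI rats and rats 2 and 5 above them. Its log2 difference from MI was 0.27 (95% interval -0.25 to 0.79, edgeR adjusted p = 0.547). Cyba was at 197, 181, 192 and 251 CPM, inside the MI range of 138 to 299.9, with a difference of 0.04 (95% interval -0.43 to 0.51, edgeR adjusted p = 0.932). Nox4 was at 7.39, 9.97, 13.4 and 4.78 CPM, spread around the MI rats, with a difference of -0.01 (95% interval -0.65 to 0.64, edgeR adjusted p = 0.995). These intervals do not show that the levels were equal.

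Ptprc itself was higher in iCarP+/Light+, at 379 to 681 CPM against 239 to 324 (0.84 on the log2 scale, edgeR adjusted p = 0.0152), a call that was lost without iCarP+/Light+ rat 5 (0.57, edgeR adjusted p = 0.0806). Relative to Ptprc, Cybb fell further, to ratios of 1.38, 1.29, 0.833 and 1.03 against 1.59 to 1.71 in MI. Ncf1, Ncf4 and Rac2 rose relative to it, to medians of 0.956, 1.64 and 4.56 from 0.724, 1.10 and 1.69. All 4 passed (exact permutation test, adjusted p = 0.0381). The Cybb call was lost when any 1 of the 4 MI rats was left out (-0.59 to -0.56 on the log2 scale, adjusted p = 0.0722 in the permutation test). The Ncf4 call was lost when any 1 of the 4 iCarP+/Light+ rats was left out (0.50 to 0.61, adjusted p up to 0.0762 in the permutation test), and the Ncf1 call without iCarP+/Light+ rat 2 (0.38, adjusted p = 0.0762 in the permutation test). In each of these cases the groups still did not overlap. With a rat fewer the exact test has fewer arrangements, and groups wholly apart need not pass it.

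Markers of neutrophils and some of red blood cells rose with this comparison, and some of macrophages and lymphocytes fell. Of all genes 11.6% were called higher and 2.01% lower. The summed level of the neutrophil markers was 507, 441, 747 and 583 CPM in MI rats and 3570, 7498, 6922 and 10037 CPM in iCarP+/Light+ rats 1, 2, 4 and 5, and 10 of 10 tested markers rose. S100a9, a calcium-binding alarmin abundant in neutrophils, was the most abundant of the list and rose by 3.53 on the log2 scale (edgeR adjusted p = 6.2e-05). Monocyte and macrophage markers went the other way in part, with C1qa, C1qb and Mrc1 lower, Adgre1 higher and the other 6 not called by edgeR (DESeq2 called 5 lower), and with summed levels that were 3031 to 4808 CPM in the treated rats against 4022 to 7065 CPM in MI. Lyz2, the most abundant of that list, had a log2 difference of -0.45 (edgeR adjusted p = 0.292). Lymphocyte markers had summed levels of 50.8 to 90.5 CPM in the treated rats, below all MI rats (122 to 249 CPM). Of the 12 tested, edgeR called 2 lower, Cd8a (-1.83 on the log2 scale, means of 127 and 35.8 CPM, edgeR adjusted p = 0.00939) and Cd3e (-1.25, edgeR adjusted p = 0.0426), and DESeq2 called 4 lower. Of 6 red blood cell markers 3 rose (Hba-a1, Hbb and Alas2) and all 6 were higher at an unadjusted p below 0.05, with a median log2 difference of 1.40 and overlapping summed levels of 2014 to 5754 CPM in MI and 5236 to 14640 CPM in iCarP+/Light+. Rat 1 was lowest and rat 5 highest of the treated rats in the neutrophil sum, as they were for Ncf1, Ncf4, Rac2 and Ptprc. The part of these markers in the members' changes was not tested.

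The third comparison, iCarP+/Light+ with Sham, placed all 6 members past the threshold, 5 higher and Nox4 lower, where 66.5% of all genes were called, 33.5% higher and 33.0% lower. Ncf4 was 38.9-fold and Rac2 24.6-fold higher. Cybb was 6.80-fold, Cyba 5.20-fold and Ncf1 2.30-fold higher, and Nox4 was at 0.313 of its Sham level. Ncf1 was the one oxidase subunit among the members that passed in this comparison and in the second but not in the first. Rac2 relative to Ptprc did not pass in this comparison (medians 2.67 in Sham and 4.56 in iCarP+/Light+, exact permutation test, adjusted p = 0.0722).

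**Figure D3:**
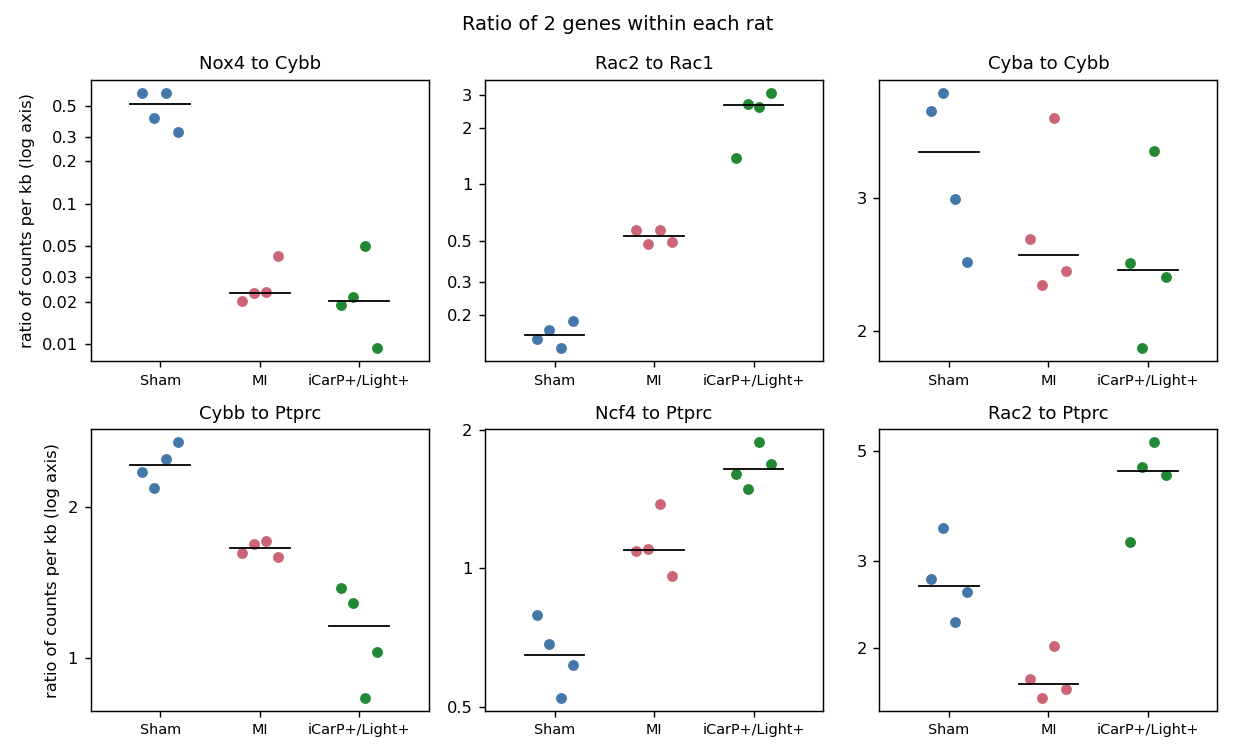
Ratios of 2 genes within each rat, in counts per kilobase on log axes. Each point is 1 rat and each line the median of 4 rats. Rac2 to Rac1 climbs over the 3 groups without overlap (medians 0.158, 0.529 and 2.63), Cybb to Ptprc declines without overlap (2.42, 1.66 and 1.16), and Cyba to Cybb overlaps among all 3 groups (3.44, 2.53 and 2.41).

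Inducible nitric oxide synthase could be followed only through the row LOC497963 (ENSRNOG00000057443, chr10:66189786-66313190, plus strand), which the table describes as similar to that enzyme. It was taken up after the table had been read and is not counted among the members. In the table it lies between Lyrm9 and Ksr1. The RefSeq gene order of the later build has, between those genes, Nos2, Lgals5, the transcribed pseudogene Nos2-ps1 and Lgals9. Reads of Nos2 and of the pseudogene could not be told apart in this row. Lgals5, a galectin gene on the opposite strand, lies inside its span, and the strand setting of the counting is not given in the sources used here. The counts of Lgals5 ran from 99 to 778 over the 12 rats, with 232 to 672 in Sham and 201 to 778 in iCarP+/Light+ rats.

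LOC497963 was at 4.19, 1.77, 2.73 and 2.28 CPM in Sham, at 7.76, 20.8, 8.22 and 5.00 CPM in MI and at 213, 566, 538 and 978 CPM in iCarP+/Light+ rats. Every iCarP+/Light+ rat stood above every MI rat. The difference was 5.78 on the log2 scale, or 55.0-fold (SE 0.55, edgeR adjusted p = 2.19e-05), rank 40 from the top of the 15101 genes. The earlier step from Sham to MI was 1.92 (SE 0.52, edgeR adjusted p = 0.00594) and did not pass with limma-voom (1.77, adjusted p = 0.0555).

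The other genes of arginine, nitric oxide and polyamine metabolism were taken from a list of 23, of which 21 were tested. From Sham to MI 9 were called higher and 3 lower, against 30.2% of all genes called higher and 33.6% lower, and the median log2 fold change was 0.26 over the list and -0.06 over all genes. Agmat, which hydrolyses agmatine, was called higher (edgeR adjusted p = 0.00104) on few counts, 2, 2, 0 and 6 in Sham rats and 41, 19, 35 and 27 in MI rats, and its mean in Sham was below the level of 3 counts. It passed the filter on low counts only through the MI rats, where it was high, so no fold is given and its call supports nothing. Ass1, which with Asl rebuilds arginine from citrulline, rose by 2.99 (edgeR adjusted p = 6.5e-06). Sat1, the polyamine acetyltransferase, rose by 2.18. The 3 that fell were Gucy1a1 and Gucy1b1, the subunits of the nitric oxide receptor guanylyl cyclase (-1.94 and -0.87), and Ddah2 (-1.77), which belongs to the enzymes that clear methylated arginines. The Gucy1b1 call was lost with libraries scaled to total counts alone (-0.29, edgeR adjusted p = 0.176), where the median of all genes was 0.52.

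From MI to iCarP+/Light+ 6 of the 21 rose and 0 fell by edgeR (2 were lower at an unadjusted p below 0.05, and DESeq2 called 2 lower), against 11.6% of all genes called higher and 2.01% lower. The median was 0.12 over the list and 0.01 over all genes. Slc7a2, a cationic amino acid transporter that brings arginine into activated myeloid cells, led them. It was at 10.7, 11.2, 5.37 and 10.2 CPM in MI and at 112, 279, 226 and 435 CPM in iCarP+/Light+ rats, with no overlap and a change of 4.81 on the log2 scale (SE 0.38, edgeR adjusted p = 5.71e-06). Gch1, the first enzyme in the making of the synthase cofactor tetrahydrobiopterin, rose by 1.75 from 35.5 to 119.5 CPM (edgeR adjusted p = 0.000399). Gatm, which uses arginine to make the precursor of creatine, rose by 1.11 (edgeR adjusted p = 0.0115), and the other 3 that rose were Sat1, Spr and Azin1 (log2 differences 0.29 to 0.70). Of the lowest 3, Agmat (-1.52), Srm (-0.73) and Gucy1a1 (-0.55) did not pass by edgeR (Agmat was called by DESeq2, -1.58, adjusted p = 0.041). Srm spread 11.0-fold among the MI rats, and without MI rat 4 its difference was 0.89. Of the other nitric oxide synthases, Nos3, the endothelial form, did not pass in either comparison (-0.07 and 0.12, means of 145 to 157 CPM in the 3 groups). It was called higher in MI than Sham with total counts alone (0.51, edgeR adjusted p = 0.0139), where the median of all genes was 0.52. Nos1, the neuronal form, had at most 11 counts in a library and was not tested.

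The partners and relatives of the oxidase came from a list of 19 with 18 rows and 12 tested genes. From Sham to MI 9 rose and 1 fell, against 30.2% of all genes called higher and 33.6% lower. Vav1, the exchange factor that loads Rac in blood cells, led with 3.39 on the log2 scale. Behind it came Hvcn1, the proton channel that balances the charge the oxidase moves (2.43, edgeR adjusted p = 1.35e-05), and Arhgdib, the inhibitor that holds Rac proteins in the cytosol of blood cells (1.73, edgeR adjusted p = 1.13e-05). Poldip2, a protein that binds Cyba and raises Nox4 activity, was the one that fell (-1.20, edgeR adjusted p = 1.01e-06), in the same direction as Nox4. Duox1 (-0.72) and Duoxa1 (-0.11), of the thyroid-type oxidases, did not pass. From MI to iCarP+/Light+ 2 of the 12 rose, a share near the 11.6% of all genes called higher, and 0 fell. DESeq2 and limma-voom called as many as edgeR, and at an unadjusted p below 0.05 the number lower was 0 by edgeR and limma-voom and 1 by DESeq2. Those that rose were Prkcd, a protein kinase C form that phosphorylates Ncf1 (1.48, edgeR adjusted p = 9.17e-05), and Arhgdib (0.96, edgeR adjusted p = 0.00645). Hvcn1 was next (0.66) and did not pass (edgeR adjusted p = 0.143). Duoxa1 (-0.40), Poldip2 (-0.21) and Prkcb (-0.08) were the lowest and did not pass. Nox1, Nox3, Noxo1, Noxa1, Duox2 and Duoxa2 were not tested, with at most 15 counts in any library.

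Of 14 transcription factors that are known to act on these genes, 9 rose from Sham to MI by edgeR and limma-voom and 10 by DESeq2, where 30.2% of all genes were called higher by edgeR. None fell in any of the 3 tools, and 0 were lower at an unadjusted p below 0.05. Cebpa, a factor of myeloid differentiation (4.44), and Runx1 (3.22) led, beside Cebpe, a factor of granulocyte differentiation, which had 5 to 7 counts in Sham rats and 138 to 251 in MI rats. Cebpe passed the filter on low counts only through the ligated rats, where it was high. Irf1 (-0.36), Rela (-0.16) and Pparg (-0.02) were the lowest and did not pass. Irf1 was called lower without Sham rat 2 (-0.53, edgeR adjusted p = 0.0331). Rela was called higher with total counts alone (0.42, edgeR adjusted p = 0.00301), where the median of all genes was 0.52. From MI to iCarP+/Light+ 9 rose and 0 fell by edgeR, DESeq2 and limma-voom (2 were lower at an unadjusted p below 0.05 in each), against 11.6% of all genes called higher. Cebpb, a factor of inflammatory myeloid genes that include Nos2, led with 2.26 on the log2 scale (SE 0.28, edgeR adjusted p = 0.000129), from 152 to 382 CPM in MI to 807 to 1614 CPM in iCarP+/Light+. Nfkb1 (1.28) and Stat6 (1.20) followed, and the other 6 were Hif1a, Cebpd, Runx1, Spi1, Rela and Stat3 (0.40 to 1.05). Cebpa (-0.49), Irf8 (-0.47) and Pparg (-0.38) were the lowest and did not pass.

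**Figure D4:**
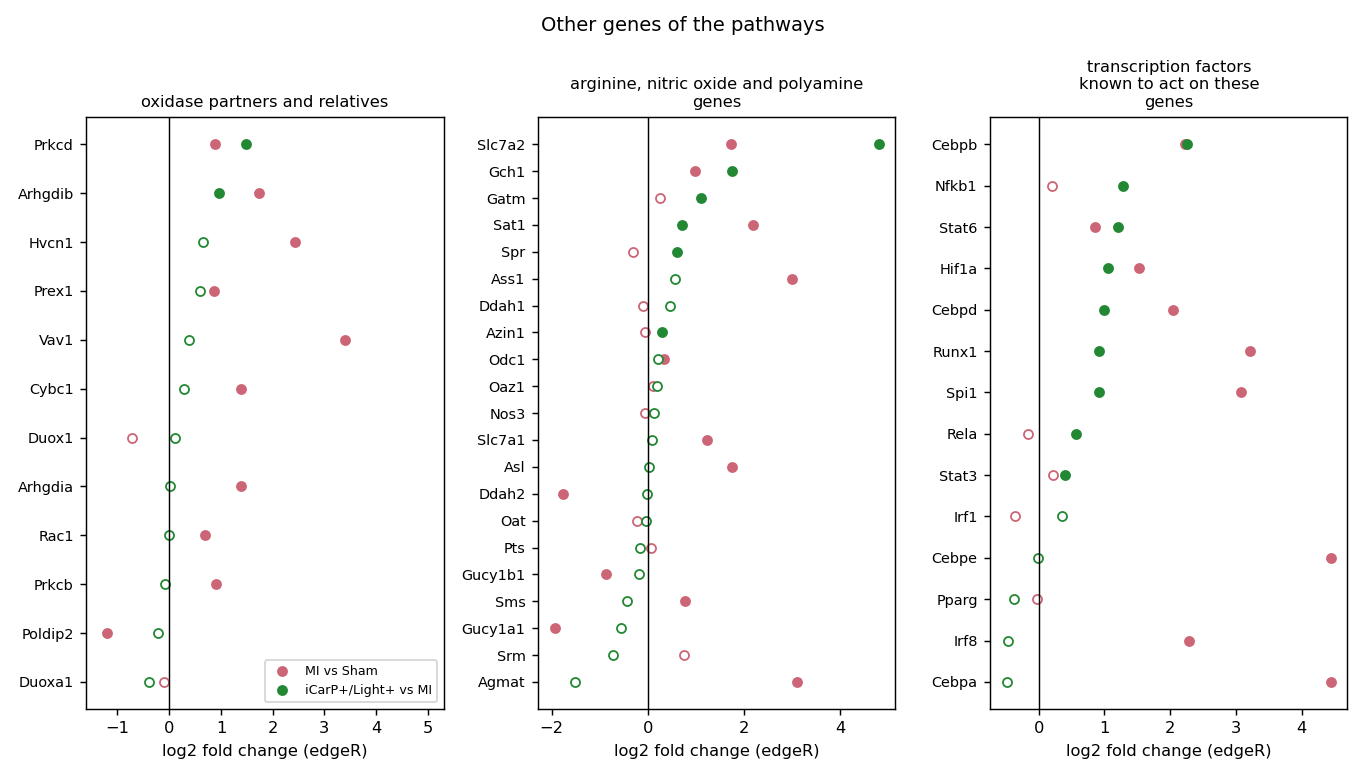
Log2 fold changes of the tested genes of the 3 pathway lists, MI vs Sham and iCarP+/Light+ vs MI. Filled points passed an adjusted p of 0.05 (edgeR) and open points did not, and genes are ordered by their change from MI to iCarP+/Light+. Slc7a2 (4.81) and Cebpb (2.26) stand at the head of their lists in iCarP+/Light+ vs MI, where 10 of 12 oxidase partners are open.

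Over the 12 rats the members fell into a few kinds of profile. Likeness was measured as the root mean square difference of log2 CPM after each gene was centred on its own mean, over 10722 protein-coding genes with at least 5 CPM, so that a smaller value is a closer match. Cybb and Cyba were 0.34 apart, the closest pair among the members, whereas Nox4 and Ncf4 were 3.06 apart, the farthest. Cybb and Ncf1, partners in the same enzyme, were 1.12 apart. The genes nearest to Cybb were Ptpre (0.23), Cyth4 (0.24) and Ptpro (0.25), and those nearest to Cyba were Atp6ap2 (0.09), Crlf2 (0.19) and Skap2 (0.19). Ncf1 lay near Gtpbp2 (0.14), Flot1 (0.16) and Gpi (0.17), and Ncf4 near Pstpip1 (0.17), Cd53 (0.18) and Tyrobp (0.22), the last an adaptor of myeloid receptors. Rac2 lay near Fyb1 (0.16), Cebpb (0.23) and LOC308990 (0.27). The nearest to Nox4 were Dach1 (0.29), Gimap4 (0.30) and Pik3c2b (0.30). LOC497963 had no gene as near as the members had, and the closest to it were Slc7a2 (0.74), Ptgs2 (0.79) and Gpr84 (0.83).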

How the data were processed

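RNA-seq of left ventricle from 12 male rats (4 Sham, 4 MI, 4 iCarP+/Light+) was used. RNA was extracted with TRIzol and libraries were made with a NEBNext Ultra kit. The authors deposited raw read counts per gene, 1 column per rat, with gene names, positions and lengths. HISAT2, featureCounts and rn6 are named in the submitters' processing notes, and versions and strand setting are not given in the sources used here. Loci without a symbol held 0.756 to 1.06% of counts.

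The members, lists and tests were chosen with earlier results of these data known. Members were found by gene name, and a few genes of the rule and the lists are not reported here. Counts were fitted in edgeR 4.0.16 (R 4.3.3) by the quasi-likelihood test with filterByExpr (minimum count 10), TMM, 1 mean per group over all 12 rats and Benjamini-Hochberg adjustment. The SE is the log2 fold change over the square root of F. Ratios within a rat (0.5 added to counts, per kb) were compared by two-sided exact permutation tests over 70 arrangements, adjusted over all 24 planned tests. A count of 3, taken as the floor, was 0.144 to 0.228 CPM and covers counting error only. Pathway genes were named by rule: the 3 highest and 3 lowest changes per list, with Nos1, Nos3, Ptprc and Rac1, the most abundant marker per list and the 3 nearest genes per member. Other genes are named where a count was 5 or fewer or its members are spelled out, chosen after their values were seen. From MI to iCarP+/Light+, edgeR called 11.6% of all genes higher and 2.01% lower. It called 1 of 12 fibroblast (most abundant Col3a1) and 3 of 6 red blood cell (Hba-a1) markers higher and 2 of 12 lymphocyte markers (most abundant Cd8a) lower, where DESeq2 called 4 lower and 6 were lower at an unadjusted p below 0.05 in each tool. Of the cardiomyocyte (Actc1), endothelial (Cdh5) and smooth muscle (Des) markers it called 0, with 0, 1 and 2 at an unadjusted p below 0.05, and DESeq2 called 2 smooth muscle markers lower. From Sham to MI, 1 smooth muscle and 4 lymphocyte markers were higher and 3 smooth muscle, 1 lymphocyte and 4 red blood cell markers lower. Of all genes 30.2% were called higher and 33.6% lower there.

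On counts simulated for the 15101 genes of iCarP+/Light+ vs MI, with 200 genes changed, the fit recovered 94% of those changed by 2 on the log2 scale and 50% of those changed by 1. For MI vs Sham it recovered 85% and 53%, and for iCarP+/Light+ vs Sham 88% and 62%. Far more genes were called in the data (2051 in iCarP+/Light+ vs MI), so recovery there can differ. Replicate numbers come from the labels. Same-numbered rats are different animals, and the correlations of their deviations from the group means were -0.15 to 0.07, so the numbers were not used as pairs. Alternatives were DESeq2 1.42.0, its size factors, total counts, other filters, limma 3.58.1 (voom), only the groups compared, no mitochondrial genes, a replicate block and leaving out each rat. Ratios of Nos2 were not made.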

Additional observations from a re-analysis of the deposited data

Results flagged for a closer look

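In MI replicate 3 the LOC497963 to Cybb ratio per kilobase was 0.0377, where the other 3 MI rats had 0.0100 to 0.0121. The gap to the nearest rat was 0.859 of the group's range, above Dixon's 95% critical value for 4 samples. Among 60 groups of 4 rats looked at in this way, chance alone gives about 3, and this was the only one.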

How the results depend on the processing

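The members' calls in MI vs Sham and in iCarP+/Light+ vs Sham held, in sign and call, under the 9 alternatives and with each rat left out, apart from Ncf1 in MI vs Sham. Ncf1 had -0.04 there, and 0.03 with DESeq2 or its size factors, 0.04 where genes needed 10 counts in every rat, 0.10 with only the groups compared, 0.53 with total counts alone and -0.14 to 0.07 with a rat left out. Ncf1, Ncf4 and Rac2 in iCarP+/Light+ vs MI kept their calls throughout. Cyba in that comparison had 0.04, -0.01 with DESeq2, its size factors or 10 counts required in every rat, -0.0 without mitochondrial genes, -0.21 with total counts alone and -0.15 to 0.31 with a rat left out. Cybb had -0.01 with total counts alone, and Nox4 ran from -0.27 to 0.16 with a rat left out. None of these Ncf1, Cyba, Cybb and Nox4 values was called, except Ncf1 with total counts alone.

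Scaling to total counts alone moved the median of all genes to 0.52 in MI vs Sham and -0.25 in iCarP+/Light+ vs MI, and relative to those medians Ncf1 (0.01), Cybb (0.25) and Cyba (0.04) stood as before. It gave 7707 genes higher and 2776 lower in MI vs Sham (73.5% higher, against 47.3% with TMM) and 2722 lower in iCarP+/Light+ vs MI (69.3% of calls, against 14.8%). With it, MI vs Sham was 0.46 for Duoxa1, 0.22 for Irf1, 0.51 for Nos3, 0.54 for Pparg and 0.42 for Rela (of these Nos3 and Rela were called higher), Gucy1b1 lost its call (-0.29), and Nos3 was -0.16 in iCarP+/Light+ vs MI. With only the groups compared Duoxa1 was 0.02 and Nos3 0.07 in MI vs Sham, and where 10 counts were required in every rat Nos3 was 0.01. Pparg, at -0.02 in MI vs Sham, was 0.05 with DESeq2, its size factors or 10 counts required, 0.01 with at least 1 count or without mitochondrial genes and 0.11 with only the groups compared, uncalled throughout. Of 304 genes lower in iCarP+/Light+ vs MI, the counts were 457 with DESeq2 size factors, 763 with DESeq2 and 475 where 10 counts were required.

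With a replicate block, iCarP+/Light+ vs MI had 1157 genes higher and 141 lower, Ptprc 0.80 (adjusted p = 0.0662) and Nox4 0.03, while the members' calls did not change. The numbers do not pair the rats. Only 1 same-numbered pair correlated best with each other within its comparison, iCarP+/Light+ rat 4 and MI rat 4 (0.07).

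With a rat left out, genes higher in iCarP+/Light+ vs MI ran from 1125 (without iCarP+/Light+ rat 5) to 2066 and genes lower from 157 (without iCarP+/Light+ rat 2, and 164 without MI rat 1) to 438. In MI vs Sham, Duoxa1 ran from -0.25 to 0.06, Nos3 from -0.19 to 0.05 and Pparg from -0.29 to 0.18. In iCarP+/Light+ vs MI, Rac1 ran from -0.13 to 0.06 and Srm from -2.14 to 0.89 (without MI rat 4). The log2 difference in Cyba to Cybb ran from -0.30 to 0.02 and in Nox4 to Cybb from -0.74 to 0.07, both uncalled throughout. Among called ratios, Cybb to Ptprc ran from -0.68 to -0.43, Ncf1 to Ptprc from 0.35 to 0.46 and Ncf4 to Ptprc from 0.48 to 0.66 there, and Rac2 to Ptprc from -0.75 to -0.54 in MI vs Sham. The cause of these shifts was not tested.

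The tissue holds many cell types and the 4 elements of the treatment came together. At these depths a count of 0 allows up to 0.228 CPM, and reads of Nos2 and its pseudogene could not be told apart in LOC497963.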
